A study of Rattus norvegicus with 6 samples.

Results

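Interleukins, the tumour necrosis factor (TNF) superfamily and their receptors were examined in rat brain, in 3 libraries labelled pcDNA3.1/LINC00894 (LINC00894 libraries) and 3 labelled pcDNA3.1 (vector libraries). The plasmid pcDNA3.1 drives expression in mammalian cells, and LINC00894 is a long non-coding RNA of humans. Genes were taken by symbol, that is, symbols beginning with Il and a digit, with Tnfsf or with Tnfrsf, and Tnf itself. The neuronal receptor-like genes Il1rapl1 and Il1rapl2 were left out. The table of 32623 genes held 106 such genes, of which 82 had at least 10 counts summed over the 6 libraries and are reported here. The filter on low counts left 58 of the 82 for the main test, and the other 24 had between 10 and 65 summed counts. Replicates carry numbers in accession order, which pair nothing between the groups.

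Interleukins are secreted proteins by which immune cells, glia and vessel cells signal to each other. Interleukin-1 and its relatives act through receptors that use the adaptor MyD88 and lead to NF-kappaB, whereas most other interleukins act through receptors bound to Janus kinases and STAT factors. TNF superfamily ligands are mostly made on the cell surface and act as trimers. Some of their receptors carry a death domain, which can recruit caspase-8, and others recruit TRAF proteins and activate NF-kappaB. Decoy receptors and receptor antagonists limit both systems. After stroke these genes are known to be induced in microglia, astrocytes, vessels and infiltrating leukocytes.

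The study concerns injury by cerebral ischemia followed by reperfusion, and both groups are labelled brain. Brain region, strain, sex, age, ischemia status, plasmid delivery and the cells reached are not stated for any sample. Since nothing ties each library to an animal of its own, p-values cover the spread among these 6 libraries and no more. That spread may be technical, at least in part. Summed counts per library ran from 12843875 to 16268464. No reads of Kdm5d or Eif2s3y, both Y-linked, were counted in LINC00894 replicates 1 and 2, and both genes were counted in the other 4 libraries. The 3 LINC00894 libraries thus did not all come from the same animal. Both libraries without Y-linked reads were LINC00894 libraries, so this difference and the plasmid cannot be fully told apart. Summed markers of brain cells lay between 5227 and 7751 CPM (counts scaled to library size) for neurons, 3206 and 5363 CPM for astrocytes and 4696 and 10717 CPM for oligodendrocytes. In brain tissue, fewer cells of a type and less RNA per cell cannot be told apart.

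Most of these genes were low in brain. Mean FPKM (fragments scaled to exonic length and library size, as deposited by the authors) was at least 10 for 12 of the 82 genes, between 1 and 10 for 33 and under 1 for 37. The most abundant was Il6st, the gp130 subunit shared by the interleukin-6 family, with 3054, 1386 and 1348 counts in LINC00894 replicates 1, 2 and 3 and 1714, 2316 and 1713 in vector replicates 1, 2 and 3. It was followed by Il34, a ligand of the microglial growth factor receptor CSF1R, with 477, 537 and 627 counts in LINC00894 and 555, 712 and 506 in vector libraries. Both genes overlapped between the groups. Next in mean FPKM came Tnfrsf12a (Fn14, the receptor of TWEAK), Tnfrsf1a (TNF receptor 1) and Tnfrsf21 (death receptor 6, a receptor of neurons and oligodendrocytes). Many signature cytokines were barely seen. Tnf itself had 1 count in all 6 libraries together, in LINC00894 replicate 3. Il10 had 3 counts, Il2 had 2 and Il22 had 1. No read was counted for 9 genes (Il3, Il5, Il9, Il17a, Il17f, Il36a, Il36rn, Il1f10 and Tnfsf11), where a count of 0 among 84645796 allows up to 0.0354 CPM, for counting error only. Around the minimum of 10, Il7 (10), Il21, Il13ra2, Tnfrsf17 and Tnfrsf18 (12 each), Il20 and Il24 (13 each) and Il13 (14) lay just inside, and Il17c and Il27 (8 each), Il5ra and Il31ra (7 each), Tnfrsf13c and Tnfsf14 (6 each) and Il19, Il22ra1 and Tnfrsf13b (5 each) lay just outside.

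The comparison of LINC00894 with vector libraries asked whether expression of these genes differed with the LINC00894 plasmid. No gene passed. Of 15121 genes tested by edgeR's quasi-likelihood test, 0 had a Benjamini-Hochberg adjusted p under 0.05 (0% called), and among the 58 genes of the set 0 passed, with adjusted p of 0.981 or more. At an unadjusted p under 0.05 there were 3 of the 58 (Tnfrsf9, Tnfsf13b and Tnfsf10, all higher in LINC00894), or 5.17%, against 610 genes or 4.03% of all tested. Of all genes, 1.82% were at that threshold and higher and 2.22% lower. The share of the set at that threshold was thus near that of all genes. Tnfrsf9 and Tnfsf13b passed the filter on low counts through the LINC00894 libraries, where they are high, so neither counts as support for a direction. DESeq2 called 11 genes (0.0727%) and 0 of the 58, with 2 of the 58 at an unadjusted p under 0.05 (4.33% over all genes).

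More fold changes were positive than negative, but this depended on LINC00894 replicate 1 and was weaker with a Y-linked covariate. By edgeR, 42 of the 58 genes had a positive log2 fold change (LINC00894 over vector), or 72.4%, against 51.8% of all genes tested, and the median was 0.21 against 0.01. Without LINC00894 replicate 1, 27 of 58 genes were positive, or 46.6%, against 49.5% of all genes, and the median was -0.03. Without vector replicate 3, 35 of 59 were positive, or 59.3%, against 53.1% of all genes, with a median of 0.03. Without both of these libraries, a fit chosen after seeing the data, 24 of 57 were positive, or 42.1%, against 51.8% of all genes, with a median of -0.15. A covariate for Y-linked counts sets LINC00894 replicates 1 and 2 apart from the other libraries. With it, 34 of 58 were positive, or 58.6%, against 49.4% of all genes, with a median of 0.16.

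**Figure D1:**
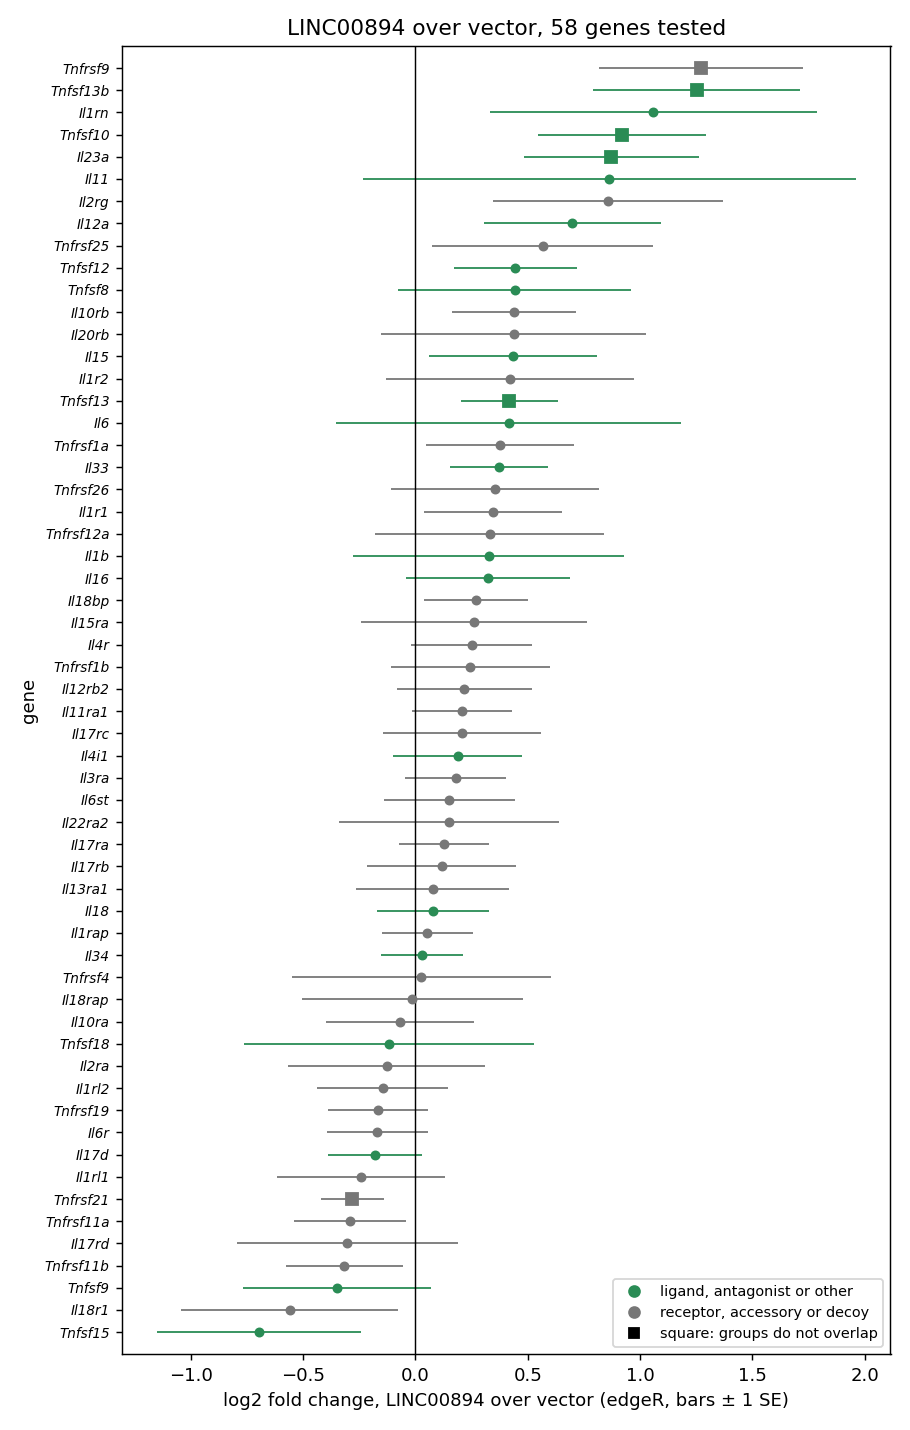
Log2 fold change of LINC00894 over vector for the 58 cytokine and receptor genes tested by edgeR, with bars of 1 standard error; green marks ligands, antagonists and other genes, grey marks receptors, accessory and decoy proteins, and squares mark genes whose 3 libraries of one group all lie beyond those of the other. Tnfrsf9 and Tnfsf13b lie farthest to the right (1.27 and 1.25) and Tnfsf15 farthest to the left (-0.70), and 0 of the 58 passed the adjusted threshold.

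Libraries of the same group differed more for these genes than for most. The SD of log2 CPM within groups had a median of 0.42 over the 58 genes, against 0.28 over all genes tested. Among genes of 5 to 50 CPM it was 0.38 over 27 genes of the set and 0.27 over 7298 genes in all, so the wider spread was also there at a similar level. LINC00894 replicate 1 had the highest CPM of the 6 libraries for 24 of the 58 genes, or 41.4%, and vector replicate 3 the lowest for 24, also 41.4%. Over all genes tested these shares were 22.2% and 23.5%. Vector replicate 3 was the highest library for 8.62% of the set, against 23.8% of all genes.

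**Figure D2:**
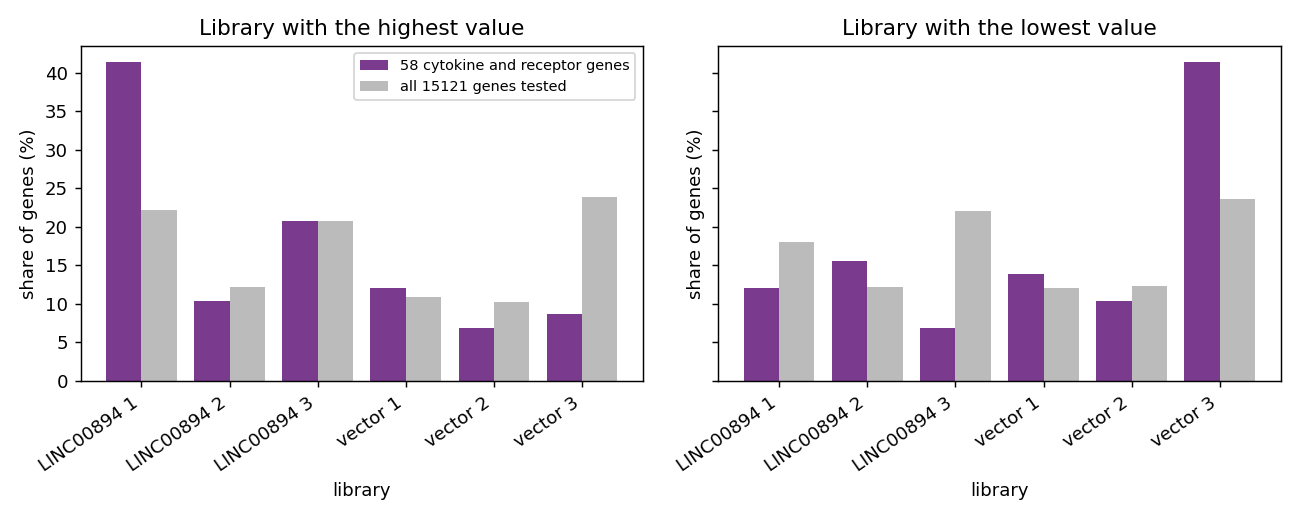
Share of genes, in percent, for which each library had the highest (left) or lowest (right) CPM, for the 58 cytokine and receptor genes (purple) and all 15121 genes tested (grey). LINC00894 replicate 1 was highest for 41.4% and vector replicate 3 lowest for 41.4% of the set, against 22.2% and 23.5% of all genes.

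The widest spread was found in 4 ligand and antagonist genes, Il11, Il6, Il1rn and Il1b, and the 250 bases upstream of the annotated start of each are given because these genes varied most between libraries of one group. They are from RefSeq (build GRCr8, 5′ to 3′ on the gene's strand), and capitals mark matches on either strand to 5 motifs. These were NF-kappaB (GGG, any 2 bases, TTTCC), AP-1 (TGA, any base, TCA), the cyclic AMP response element or CRE (TGACGTCA), C/EBP (TTG, any base, GCAA) and the TATA box (TATA, any base, AA). The Il11 window spans chr1:78098372-78098621 (+), Il6 chr4:5894576-5894825 (-), Il1rn chr3:27520072-27520321 (+) and Il1b chr3:137036582-137036831 (-).
Il11: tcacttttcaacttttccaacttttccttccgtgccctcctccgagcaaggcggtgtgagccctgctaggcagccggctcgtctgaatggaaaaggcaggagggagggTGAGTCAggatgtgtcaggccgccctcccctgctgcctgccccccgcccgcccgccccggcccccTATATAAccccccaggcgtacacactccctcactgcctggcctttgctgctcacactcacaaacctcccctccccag
Il6: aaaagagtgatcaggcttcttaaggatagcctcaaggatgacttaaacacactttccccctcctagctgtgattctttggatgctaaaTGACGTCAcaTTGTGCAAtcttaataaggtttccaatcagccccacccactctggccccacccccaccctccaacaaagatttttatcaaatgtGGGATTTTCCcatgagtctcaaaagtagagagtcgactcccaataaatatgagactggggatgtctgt
Il1rn: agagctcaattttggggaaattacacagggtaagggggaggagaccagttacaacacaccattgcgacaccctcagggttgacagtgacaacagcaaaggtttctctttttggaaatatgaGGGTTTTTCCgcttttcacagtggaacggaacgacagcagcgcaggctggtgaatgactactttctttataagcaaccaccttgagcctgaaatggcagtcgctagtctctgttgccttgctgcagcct
Il1b: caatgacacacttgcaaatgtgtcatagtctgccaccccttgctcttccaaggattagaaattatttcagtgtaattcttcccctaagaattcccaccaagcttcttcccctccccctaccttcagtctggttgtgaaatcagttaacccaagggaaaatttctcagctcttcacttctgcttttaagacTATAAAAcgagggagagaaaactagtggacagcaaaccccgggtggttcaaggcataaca

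Il6 held a CRE, a C/EBP and an NF-kappaB match, which began 162, 152 and 68 bases upstream of the start and did not overlap. Il11 held an AP-1 match from base 142 upstream and a TATA match from base 77 upstream. Il1rn held an NF-kappaB match from base 129 upstream, and Il1b a TATA match from base 60 upstream. Of the 33469 RefSeq windows of this length, 1.3% held the NF-kappaB pattern, 6.34% AP-1, 1.59% CRE, 2.29% C/EBP and 11.6% TATA. Of the 82 genes, 61 had a window under their symbol, and these patterns were found for 4, 7, 2, 4 and 9 of the 61. The matches describe the letters in these windows and are not evidence of binding.

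Il6 and Il11, cytokines that signal through gp130, differed many-fold between libraries of one group. The counts of Il11 were 685, 51 and 111 in LINC00894 replicates 1, 2 and 3 and 61, 462 and 13 in vector replicates 1, 2 and 3. The highest and lowest CPM of Il11 differed 12.7-fold within LINC00894 libraries and 33.5-fold within vector libraries, and the groups overlapped. Il6 had 171, 25 and 107 counts in LINC00894 libraries and 99, 135 and 12 in vector libraries. Vector replicate 3 was the lowest and LINC00894 replicate 2 the second lowest for Il6, while LINC00894 replicate 1 was the highest for both genes. The log2 fold changes by edgeR were 0.86 (SE 1.096) for Il11 and 0.42 (SE 0.77) for Il6. Without LINC00894 replicate 1 they were -0.92 and -0.20, and without vector replicate 3 that of Il6 was -0.13.

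Receptors of the interleukin-6 family also overlapped between groups. Il6st had a log2 fold change of 0.15 (SE 0.29), with LINC00894 replicate 1 the highest library. Without LINC00894 replicate 1 the fold change of Il6st was -0.33. Il6r, which binds interleukin-6, had 606, 421 and 490 counts in LINC00894 and 635, 780 and 455 in vector libraries, which overlapped, with a log2 fold change of -0.17 (SE 0.22). It was -0.39 without vector replicate 3, -0.31 without LINC00894 replicate 1, -0.10 without LINC00894 replicate 2, -0.066 without vector replicate 1 and -0.065 without vector replicate 2. Il11ra1, which binds interleukin-11, stood at 12.6 ± 2.20 FPKM in LINC00894 and 10.4 ± 2.10 FPKM in vector libraries (SD, n = 3 each). It overlaps Ccl27 on the opposite strand (mean 25.7 FPKM), and no source used here says whether counting used strand, so reads of these 2 genes cannot be told apart. Il27ra and the ligand Il27 had 48 and 8 summed counts.

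Among interleukin-1 family ligands, the receptor antagonist Il1rn stood out for its spread. Il1rn, which occupies the interleukin-1 receptor without signalling, had 319, 113 and 267 counts in LINC00894 replicates 1, 2 and 3 and 74, 289 and 17 in vector replicates 1, 2 and 3. Only vector replicate 2 reached the level of the LINC00894 libraries, and the groups overlapped. The log2 fold change of Il1rn was 1.06 (SE 0.73); it was 0.25 without LINC00894 replicate 1 and vector replicate 3 and 2.35 without vector replicate 2. Il1b, the secreted agonist made by activated microglia and monocytes, had 69, 11 and 61 counts in LINC00894 and 45, 57 and 20 in vector libraries. LINC00894 replicate 2 was thus the lowest of the 6 for Il1b, and vector replicate 3 the second lowest. Its log2 fold change was 0.33 (SE 0.60), and -0.06 without LINC00894 replicate 1. Il1a, below the filter, had 9, 8 and 7 counts in LINC00894 and 8, 8 and 25 in vector libraries. Il33, an alarmin of astrocytes and oligodendrocytes, stood at 14.5, 9.68 and 13.9 FPKM in LINC00894 and 11.2, 9.05 and 7.77 FPKM in vector libraries, with overlap and a log2 fold change of 0.37 (SE 0.22), and 0.24 without vector replicate 3. Il18, which the inflammasome activates as it does interleukin-1 beta, had 112, 77 and 122 counts in LINC00894 and 93, 130 and 102 in vector libraries, which overlapped.

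Most receptor genes of the interleukin-1 family in this set lie next to each other on chromosome 9 of the table's coordinates. They run from Il1r2 (start 46840992) through Il1r1, Il1rl2, Il1rl1 and Il18r1 to Il18rap (end 47258503). Il1rap lies apart, on chromosome 11. Il1r2, a decoy receptor, had 74, 13 and 35 counts in LINC00894 and 30, 47 and 23 in vector libraries. Il1r1, the signalling receptor, had 428, 188 and 230 counts in LINC00894 and 170, 325 and 246 in vector libraries. For both, LINC00894 replicate 1 was the highest library and vector replicate 2 the next, and the groups overlapped. Their log2 fold changes were 0.42 (SE 0.55) and 0.35 (SE 0.31), and -0.33 and -0.07 without LINC00894 replicate 1. Il18rap, the accessory chain of the interleukin-18 receptor, had 62, 16 and 25 counts in LINC00894 and 31, 54 and 30 in vector libraries, with the same pair of libraries highest. Il1rl1 (ST2, the receptor of interleukin-33) had 29, 31 and 18 counts in LINC00894 and 30, 30 and 42 in vector libraries. Il18r1 had 9, 9 and 14 counts in LINC00894 and 12, 29 and 12 in vector libraries, with a log2 fold change of -0.56 (SE 0.48), and -0.10 without vector replicate 2. Il18r1 passed the filter on low counts through the vector libraries, where it is higher. Il1rap, the shared accessory chain, stood at 15.7 ± 4.03 FPKM in LINC00894 and 14.4 ± 1.92 FPKM in vector libraries, (SD, n = 3 each). Il18bp, which binds and neutralises interleukin-18, had 121, 114 and 147 counts in LINC00894 and 121, 115 and 110 in vector libraries, which overlapped. Of the 8 receptor, accessory and decoy genes, 4 had positive and 4 negative fold changes.

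**Figure D3:**
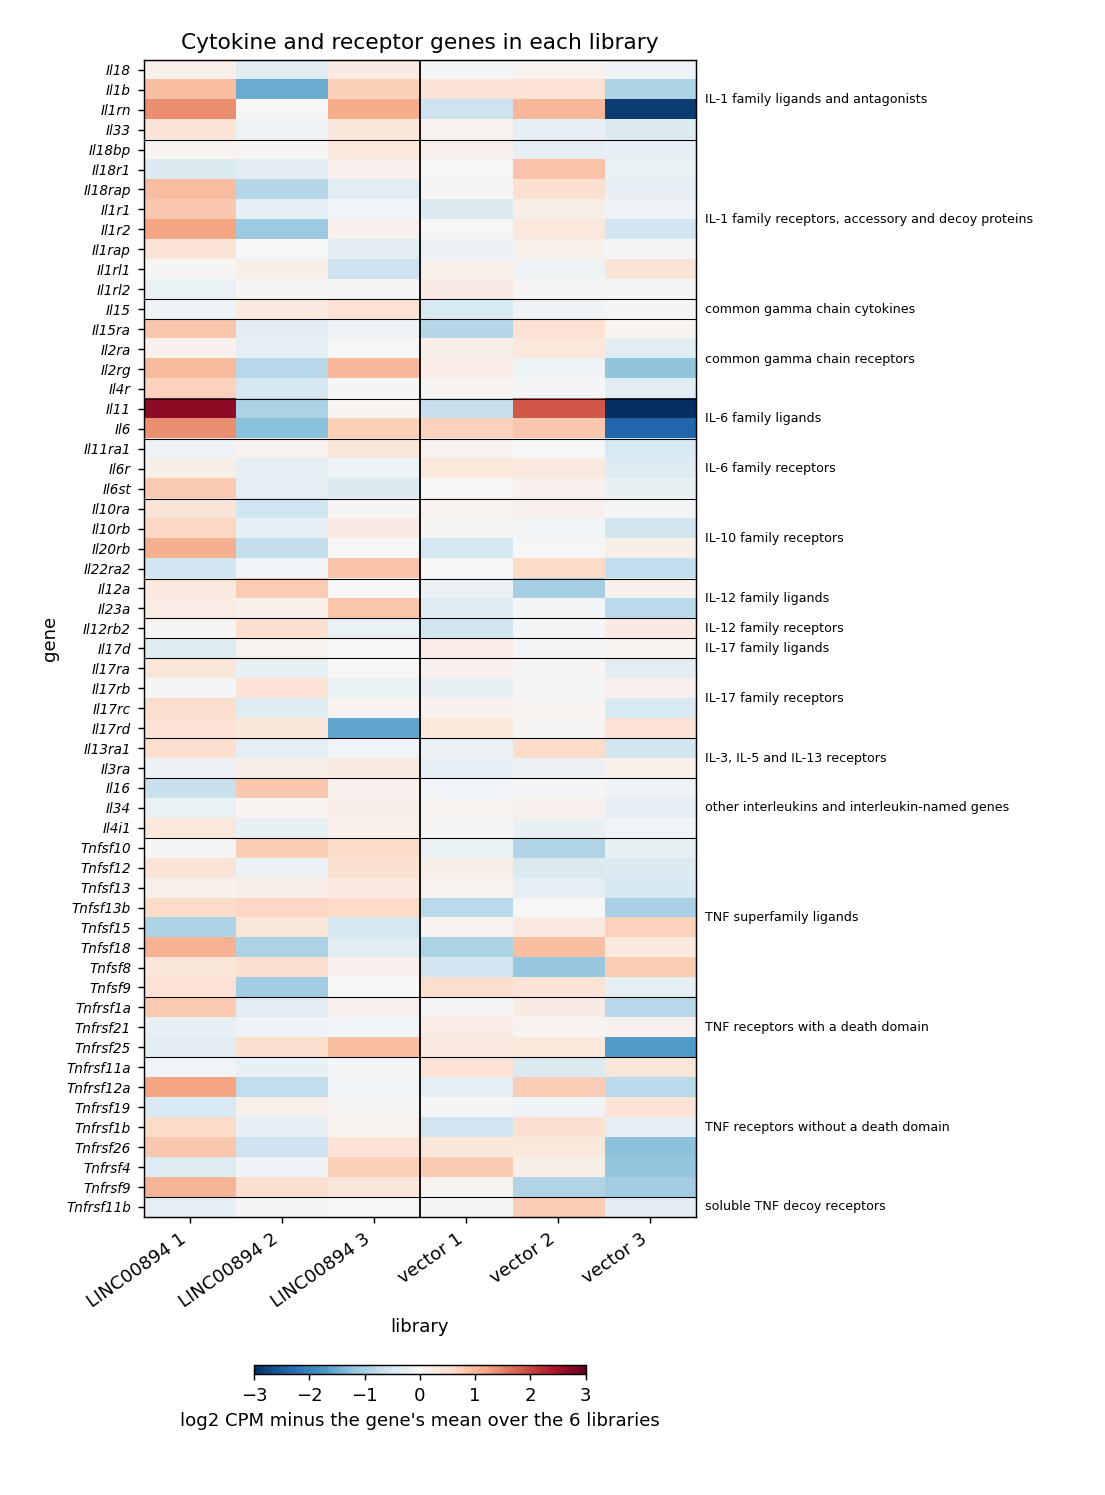
Log2 CPM of each of the 58 genes tested, centred on its 6-library mean, with genes down the page grouped by role and libraries across. Il11, Il6 and Il1rn have the strongest colours, red in LINC00894 replicate 1 and blue in vector replicate 3, and most receptors are pale.

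Il23a and Il12a, the alpha subunits of interleukin-23 and interleukin-12, had positive fold changes. Il23a had 31, 28 and 49 counts in LINC00894 and 19, 30 and 16 in vector libraries. After scaling for depth all 3 LINC00894 libraries (2.28, 2.17 and 3.58 CPM) lay above the 3 vector libraries (1.47, 1.86 and 1.05 CPM). The log2 fold change of Il23a was 0.87 (SE 0.39), from 0.52 to 1.29 over the alternative fits. The value of 0.52 came from a fit to log2 of FPKM plus 1, and the lowest among fits to counts was 0.59. Il12a had 46, 61 and 38 counts in LINC00894 and 31, 21 and 46 in vector libraries, with overlap between the groups and a log2 fold change of 0.70 (SE 0.39), and values of 0.42 when vector replicate 2 was left out and 0.44 when LINC00894 replicate 2 was. The subunit that both cytokines need, Il12b, had 2, 1 and 12 counts in LINC00894 and 1 in each vector library, so LINC00894 replicate 3 held most of its reads. Il23r had 13, 3 and 1 counts in LINC00894 and 1, 0 and 1 in vector libraries, with LINC00894 replicate 1 holding most reads. Il23r reached the minimum of 10 counts through the LINC00894 libraries, so no fold change is given.

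Receptors that share the common gamma chain were present, with few of their cytokines. Il2rg, which encodes that chain and is X-linked, had 134, 36 and 139 counts in LINC00894 and 77, 74 and 32 in vector libraries. LINC00894 replicates 1 and 3 were the highest libraries for Il2rg, but LINC00894 replicate 2 lay below vector replicates 1 and 2. Its log2 fold change was 0.86 (SE 0.51). It was 0.51 without vector replicate 3, 0.56 without LINC00894 replicate 3 and 0.30 without both LINC00894 replicate 1 and vector replicate 3. Il4r had 1127, 476 and 724 counts in LINC00894 and 705, 805 and 625 in vector libraries. The log2 fold change of Il4r was 0.25 (SE 0.27), and -0.11 without LINC00894 replicate 1, the highest library. Il13ra1, its partner in the type II receptor, had 151, 82 and 100 counts in LINC00894 and 89, 183 and 80 in vector libraries. Il15 was the sole cytokine of this family past the filter, with 19, 25 and 29 counts in LINC00894 and 14, 23 and 23 in vector libraries. Il4, Il21 and Il7 had 34, 12 and 10 summed counts.

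Interleukin-10, interleukin-17 and unclassified interleukins showed receptors and a few tissue ligands. Il10rb, shared by receptors of interleukin-10 and its relatives, had 246, 126 and 189 counts in LINC00894 and 154, 178 and 120 in vector libraries, which overlapped. Il10ra had 65, 30 and 51 counts in LINC00894 and 51, 64 and 53 in vector libraries. Il17ra, a receptor subunit shared across its family, had 932, 587 and 736 counts in LINC00894 and 749, 876 and 637 in vector libraries, which overlapped. Il17d, a family member expressed outside the immune system, had 145, 191 and 189 counts in LINC00894 and 208, 220 and 226 in vector libraries, with a log2 fold change of -0.18 (SE 0.21), and values of -0.055 when LINC00894 replicate 1 was left out and -0.30 when replicate 2 was. On the CPM scale the groups overlapped for Il17d. Il17rd had 11 counts in LINC00894 replicate 3 and between 43 and 55 in each of the other 5 libraries. Il16, a chemoattractant that binds CD4, had 46, 125 and 82 counts in LINC00894 and 66, 85 and 74 in vector libraries, so both its lowest and its highest library were LINC00894 libraries.

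The groups did not overlap for 6 of the 82 genes. Of these, 5 had all LINC00894 libraries above all vector libraries (Tnfrsf9, Tnfsf13b, Tnfsf10, Tnfsf13 and Il23a) and 1 had them all below (Tnfrsf21). Over all genes with at least 10 summed counts these shares were 4.33% above and 4.41% below. That made 7.32% of the set, against 8.74% of all genes with at least 10 summed counts, so the share was near the background. TNF ligands and receptors were 5 of the 6 and 24 of the 82 genes, and whether they differed from interleukins in this was not tested. All 6 passed the filter, where they were 10.3% of the set and 8.86% of all genes tested.

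**Figure D4:**
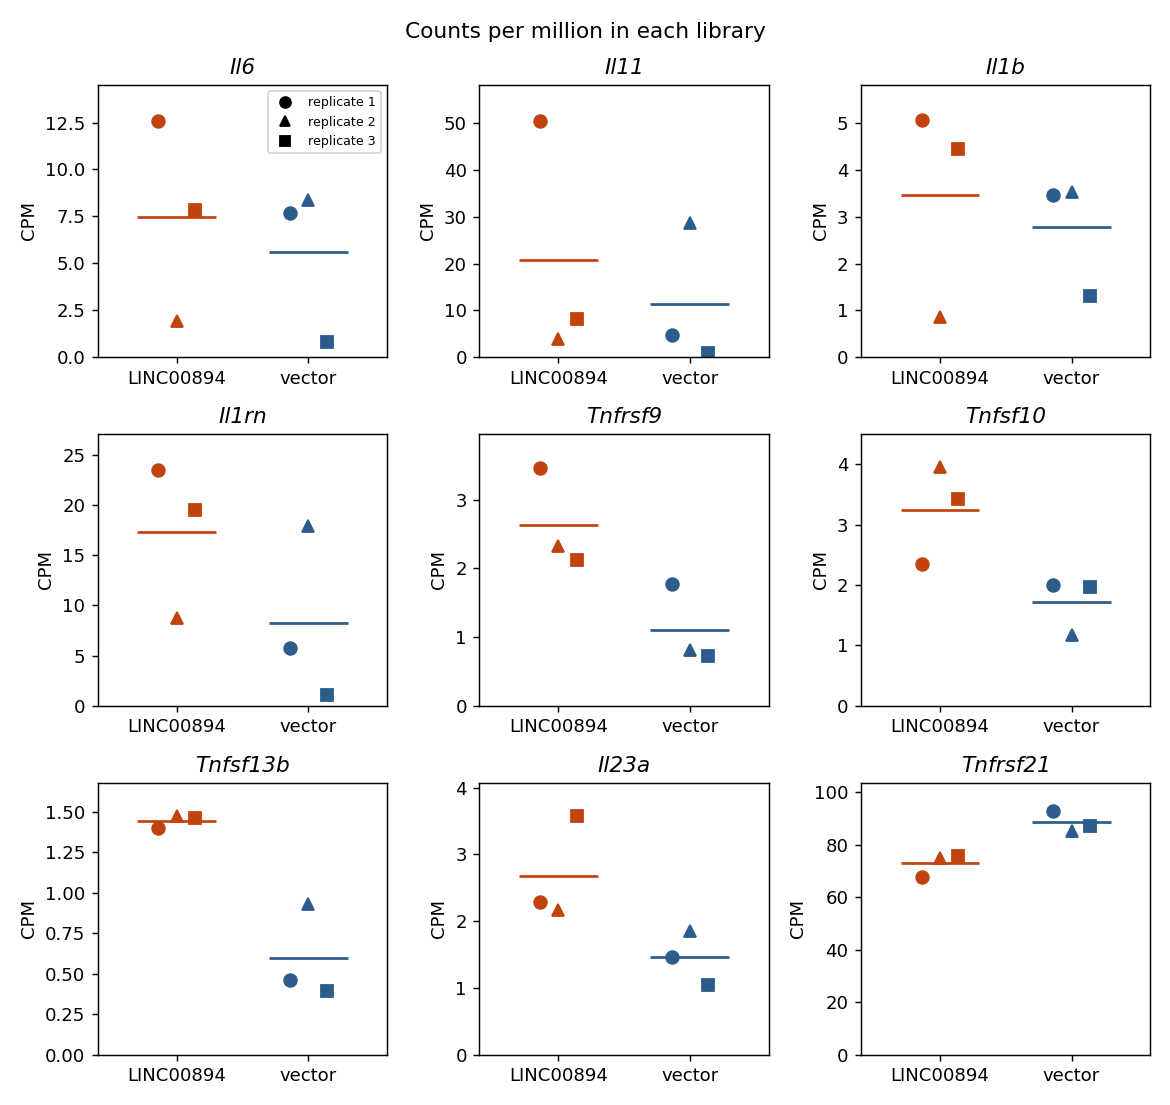
CPM, scaled by TMM factors, of 9 genes in each library, with the LINC00894 libraries left of the vector libraries, replicates by symbol, and a line at the mean of each group; each panel has its own axis from 0. Il6, Il11, Il1b and Il1rn overlap between groups, and the groups are apart for Tnfrsf9, Tnfsf10, Tnfsf13b, Il23a and Tnfrsf21.

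Among ligands, Tnfsf13b (BAFF, a B cell survival factor that myeloid cells and astrocytes also make) had 19, 19 and 20 counts in LINC00894 and 6, 15 and 6 in vector libraries. Its log2 fold change was 1.25 (SE 0.46), the 3 LINC00894 libraries were nearly alike, and counts this low limit the precision. Tnfsf13b passed the filter through the LINC00894 libraries. Its log2 fold change was 1.24 in the fit of genes with at least 10 summed counts, which its vector libraries reach alone. Tnfsf10 (TRAIL, which triggers apoptosis through death receptors) had 32, 51 and 47 counts in LINC00894 and 26, 19 and 30 in vector libraries, with a log2 fold change of 0.92 (SE 0.37). Tnfsf13 (APRIL, a relative of BAFF) had 212, 208 and 233 counts in LINC00894 and 194, 188 and 151 in vector libraries, with a log2 fold change of 0.42 (SE 0.22). LINC00894 replicate 1 was not the highest library for Tnfsf10, Tnfsf13 or Tnfsf13b. Across all alternative fits in which they were tested, the log2 fold changes ran from 0.37 to 1.22 for Tnfsf10, 0.27 to 0.58 for Tnfsf13 and 1.00 to 1.74 for Tnfsf13b, with adjusted p of 0.606 or more. The low end for Tnfsf10 came from a fit to log2 of FPKM plus 1, and its lowest value among fits to counts was 0.70. Tnfsf13b was not tested in the fits to FPKM. Tnfsf12 (TWEAK) had 173, 110 and 182 counts in LINC00894 and 143, 116 and 110 in vector libraries, which overlapped. Tnfsf15 (TL1A, an endothelial ligand) had 10, 26 and 14 counts in LINC00894 and 21, 31 and 39 in vector libraries, with overlap and a log2 fold change of -0.70 (SE 0.45), and values of -1.22 when LINC00894 replicate 2 was left out and -0.43 when replicate 1 was. Tnfsf9 (4-1BB ligand) had 64, 21 and 47 counts in LINC00894 and 66, 74 and 43 in vector libraries, with a log2 fold change of -0.35 (SE 0.42). The value for Tnfsf9 was -0.72 without LINC00894 replicate 1 and -0.20 without vector replicate 1, -0.057 without LINC00894 replicate 2 and -0.59 without vector replicate 3. The receptor of this ligand, Tnfrsf9 (4-1BB, a costimulatory receptor of T cells) had 47, 30 and 29 counts in LINC00894 and 23, 13 and 11 in vector libraries. No overlap was seen for Tnfrsf9, whose log2 fold change was 1.27 (SE 0.45). Tnfrsf9 also passed the filter through the LINC00894 libraries, and its value was 1.25 in the fit with at least 10 summed counts. LINC00894 replicate 1 was its highest and vector replicate 3 its lowest library, and the log2 fold change ran from 0.67 to 1.76 over the alternative fits. The value of 0.67 came from the fit to log2 of FPKM plus 1, and the lowest among fits to counts was 0.80.

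Death domain receptors differed in direction. Tnfrsf1a, the main receptor of soluble TNF, had 894, 387 and 569 counts in LINC00894 and 509, 730 and 326 in vector libraries, so the groups overlapped. For Tnfrsf1a the log2 fold change was 0.38 (SE 0.33), and -0.24 without LINC00894 replicate 1 and vector replicate 3. Tnfrsf21 differed little within groups, with 917, 968 and 1039 counts in LINC00894 and 1203, 1378 and 1330 in vector libraries. It stood at 17.1 ± 0.923 FPKM in LINC00894 and 19.9 ± 0.699 FPKM in vector libraries (SD, n = 3 each), and the groups did not overlap. By edgeR it had a log2 fold change of -0.28 (SE 0.14), from -0.33 to -0.20 over the alternative fits, and it did not pass edgeR's adjusted threshold (adjusted p = 0.981). Tnfrsf25 (death receptor 3, the receptor of TL1A) had 132, 230 and 317 counts in LINC00894 and 197, 248 and 56 in vector libraries, with vector replicate 3 the lowest.

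Receptors without a death domain overlapped between groups, apart from Tnfrsf9. Tnfrsf12a, which is induced by growth factors and injury, had 508, 125 and 211 counts in LINC00894 and 172, 438 and 141 in vector libraries. LINC00894 replicate 1 and vector replicate 2 were the highest libraries, as for Il11. Its log2 fold change was 0.33 (SE 0.51), and -0.40 without LINC00894 replicate 1. Tnfrsf1b (TNF receptor 2) had 102, 54 and 74 counts in LINC00894 and 43, 112 and 63 in vector libraries. Tnfrsf11a (RANK) had 190, 162 and 194 counts in LINC00894 and 255, 179 and 292 in vector libraries, with a log2 fold change of -0.29 (SE 0.25), which was -0.17 without vector replicate 1 and -0.52 without vector replicate 2. Tnfrsf11b (osteoprotegerin, a soluble decoy of RANK ligand and TRAIL) had 458, 512 and 570 counts in LINC00894 and 529, 1120 and 505 in vector libraries, with vector replicate 2 far above the others. Its log2 fold change was -0.32 (SE 0.26), and 0.052 without vector replicate 2. Tnfrsf19 (TROY) had 290, 422 and 414 counts in LINC00894 and 365, 441 and 597 in vector libraries, which overlapped. The 32 tested genes for which no fold change is given here had log2 fold changes between -0.30 and 0.57. Of the 24 genes below the filter, 13 had positive and 11 negative log2 fold changes in the fit with at least 10 summed counts, where 50.3% of all genes were positive. Some of them, such as Il23r, Il12b and Il21, reached 10 counts through 1 group. Their direction is therefore tied to the minimum, and the count is no support for a direction.

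Genes that act downstream of these receptors held no gene past the adjusted threshold either. Of 18 TNF receptor signalling genes tested, 14 had positive and 4 negative log2 fold changes, with a median of 0.09. Over all genes tested 51.8% were positive and the median was 0.01. Tnfaip3 (A20, an inhibitor of NF-kappaB) had 251, 103 and 146 counts in LINC00894 and 260, 342 and 289 in vector libraries, with a log2 fold change of -0.70 (SE 0.29). Of 19 adaptors of interleukin-1 and Toll receptors and inflammasome genes, 16 were positive and 3 negative, with a median of 0.33. Casp1, the protease that matures interleukin-1 beta and interleukin-18, had 97, 77 and 87 counts in LINC00894 and 58, 76 and 31 in vector libraries, with a log2 fold change of 0.80 (SE 0.34). NF-kappaB subunits and inhibitors were positive in 7 of 15 (median -0.01), and JAK, STAT and SOCS genes in 10 of 18 (median 0.05). IL-6 family genes with other names, such as Lif and Osmr, were positive in 2 of 10 (median -0.15). Hematopoietic cytokines and receptors such as Csf1 and Csf3 were positive in 7 of 8 (median 0.29). Genes commonly induced by these cytokines were positive in 13 of 16 (median 0.54). These counts are from all 6 libraries, and each of these lists had its highest median log2 CPM, relative to gene means, in LINC00894 replicate 1. That median was 0.44 for TNF receptor signalling and 0.43 for interleukin-1 and Toll adaptors. It was 0.55 for hematopoietic cytokines and receptors and 1.21 for the cytokine-induced genes. TNF receptors with other names, such as Fas and Ltbr, were positive in 4 of 7 tested (median 0.16). Their highest median by library was also in LINC00894 replicate 1 (0.40). TNF ligands with other names, such as Faslg, were positive in 0 of 2 tested (median -0.12). Their highest median by library was in vector replicate 3 (0.55, against 0.22 in LINC00894 replicate 1). Sele, the endothelial selectin, had 300, 83 and 326 counts in LINC00894 and 113, 94 and 36 in vector libraries (log2 fold change 1.64, SE 0.54). Ptgs2, cyclooxygenase-2, had 2384, 1026 and 1310 counts in LINC00894 and 1851, 5609 and 2941 in vector libraries (-0.96, SE 0.36). Tnfaip3, Casp1, Sele and Ptgs2 were taken from the genes with the smallest unadjusted p of their lists, so they are not typical members. Irak4 (0.84, SE 0.34) and Selp (1.77, SE 0.72) were also among these.

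Cytokine-induced genes and markers of neutrophils, macrophages and vessels were also, by their median deviation, highest in LINC00894 replicate 1 and lowest in vector replicate 3. Single markers did not all follow these medians. Flt1, Vwf (endothelial), Cd68 and Cd14 (macrophage) were lowest in vector replicate 3. Cdh5, Kdr, Cd163, F13a1, Lyz2 and the neutrophil marker Mmp8 were lowest in LINC00894 replicate 2. Tek, Emcn and Slco1a4 were lowest in vector replicate 1, and Mrc1 and Lyve1 in LINC00894 replicate 3. Some genes of these lists were not highest in LINC00894 replicate 1. Slco1a4 was highest in LINC00894 replicate 2 (13.1 FPKM, against 4.26 in LINC00894 replicate 1). Ptgs2 was highest in vector replicate 2 (78.8 FPKM, against 41.7 in LINC00894 replicate 1). Cxcl10 and the pericyte marker Rgs5 were highest in vector replicate 3 (3.19 and 57.3 FPKM, against 2.49 and 37.1 in LINC00894 replicate 1). The median deviation of the 16 cytokine-induced genes from their means was 1.21, -0.76 and 0.26 log2 units in LINC00894 replicates 1, 2 and 3 and 0.21, 0.23 and -1.10 in vector replicates 1, 2 and 3. Over the 58 cytokine and receptor genes it was 0.37, -0.17 and 0.09 in LINC00894 and 0.03, 0.08 and -0.28 in vector libraries. The 11 neutrophil markers summed to between 28.6 and 94.9 CPM in LINC00894 and between 15.03 and 61.0 CPM in vector libraries, with the highest sum in LINC00894 replicate 1 and the lowest in vector replicate 3, and 5 of them were tested. The 9 macrophage and monocyte markers found in the table summed to 211, 78.6 and 148 CPM in LINC00894 and 105, 108 and 67.6 CPM in vector libraries, and 8 endothelial markers to 630, 347 and 359 CPM in LINC00894 and 369, 389 and 275 CPM in vector libraries. Cldn5, an endothelial marker, was at 0 in all 6 libraries, although Flt1, Cdh5 and Vwf were counted in each. A count of 0 cannot tell an absent transcript from reads not assigned to the gene. The 10 microglial markers summed to 234, 292 and 272 CPM in LINC00894 and 266, 248 and 257 CPM in vector libraries, with LINC00894 replicate 1 the lowest. T and NK cell markers summed to between 10.2 and 10.98 CPM in LINC00894 and between 8.53 and 10.6 CPM in vector libraries, and Gzmb and Klrb1 were at 0 in all 6 libraries. The part of these cell markers in the cytokine values was not tested.

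**Figure D5:**
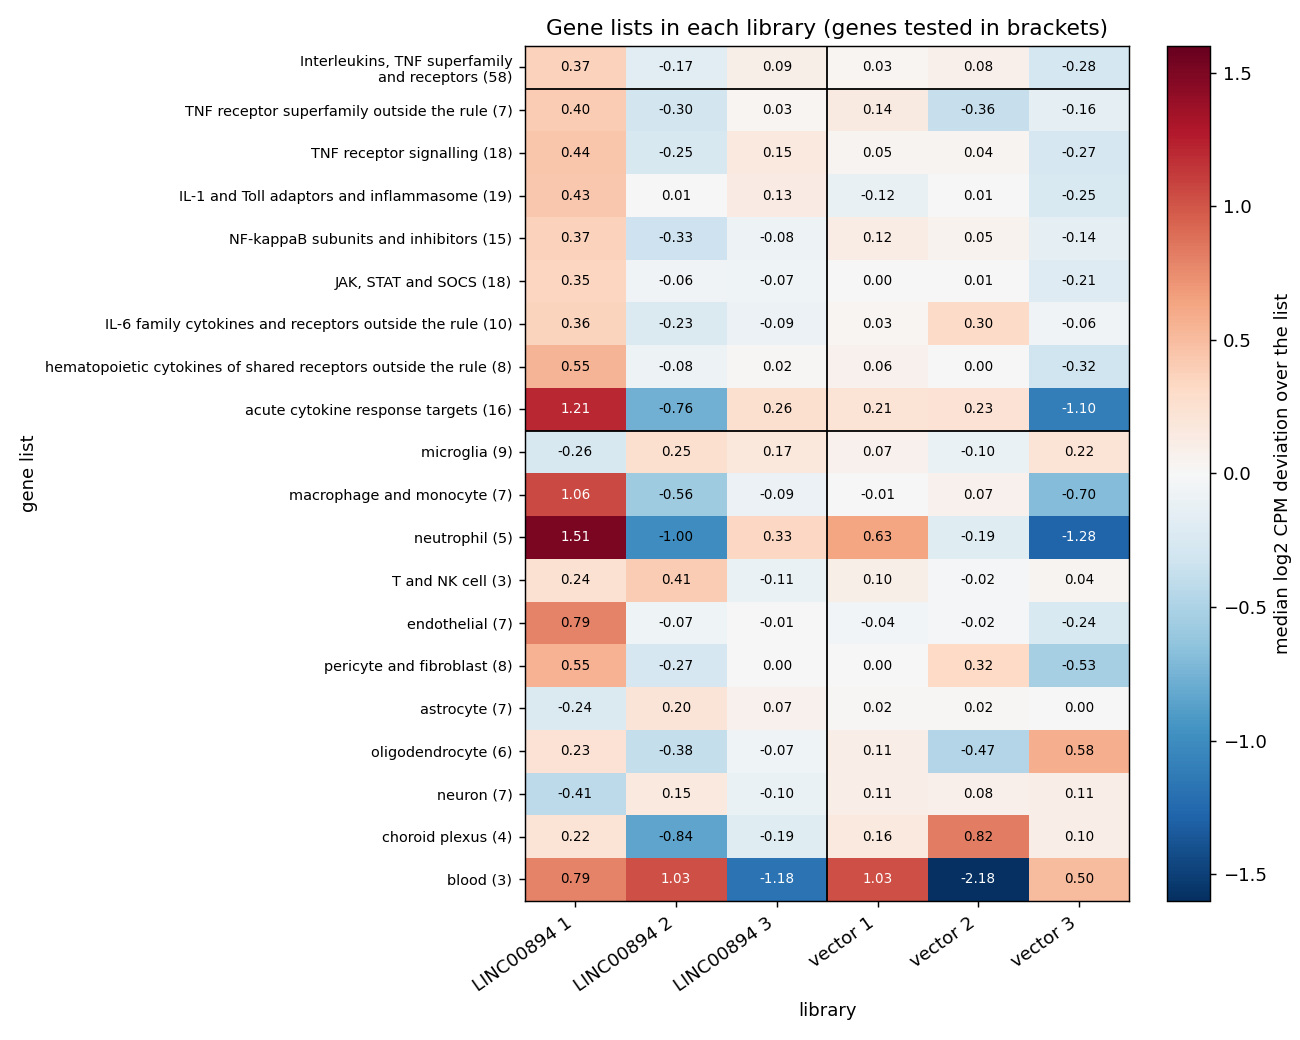
Median, over the genes of each list, of log2 CPM minus the mean of that gene in the 6 libraries, for the 58 cytokine and receptor genes (top row), pathway lists (middle) and cell type marker lists (bottom) with at least 3 genes tested, with LINC00894 libraries left of vector libraries. Cytokine-induced genes reach 1.21 in LINC00894 replicate 1 and -1.10 in vector replicate 3, neutrophil markers 1.51 and -1.28, and microglial markers -0.26 and 0.22.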

How the data were processed

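Per the labels' protocols, TRIzol RNA was selected on oligo(dT) beads, random primers were used for cDNA, and both fragment ends were sequenced. HISAT2 2.0.1 and DESeq2 appear, with no role, in the submitters' processing notes; no source used here names the counter, its use of strand, the annotation or the build. The authors deposited raw counts and FPKM per library for 32623 Ensembl genes, per the file headers; the FPKM values equal counts over exonic length and summed counts to within 0.00500. Rows without a symbol numbered 388 and stayed in the fits.

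Counts were tested with edgeR 4.0.16 (R 4.3.3): filterByExpr (minimum count 10, minimum total 15), TMM factors, quasi-likelihood F-test, no covariate, Benjamini-Hochberg adjustment over all genes. The standard error is the log2 fold change over the square root of F. Genes below the filter were fitted among all genes with at least 10 summed counts. CPM values use effective library sizes, and log2 CPM a prior count of 2. Alternatives were DESeq2 1.42.0, limma 3.58.1 (log2 of FPKM plus 1 or 0.1, for genes averaging 0.5 FPKM or more), other scaling and filters, a Y-linked covariate and each library left out. The steps were tested on simulated data.

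The genes and lists were chosen with earlier results of these data known. Values per library are given for genes whose groups did not overlap, the 8 with the smallest unadjusted p in each direction, genes often measured in ischemic brain, the 5 most abundant, and counts near the minimum; Il11, Il11ra1, Il1rap, Il18rap, Il12b, Il23r, Il4, Il15, Il10rb, Il17rd, Il2, Il22, Il27ra and Tnfrsf25 were added after their values were seen. Pathway and marker lists held 228 entries, of which 219 were matched, some through RefSeq names (GRCr8). Promoter sequences are RefSeq's. Plots used matplotlib 3.10.9.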

Additional observations from a re-analysis of the deposited data

How the results depend on the processing

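No paired analysis was possible because the labels give no number shared between the groups. Of the genes of the set, 0 passed an adjusted p of 0.05 in any of the 14 alternatives. Over all genes, 11 passed by DESeq2, 8 without a filter, and between 0 and 9 with a library left out. Genes at an unadjusted p under 0.05 numbered 975 without a filter and 1368 with the Y-linked covariate. With a library left out they numbered between 394 and 1104, and between 1 and 6 within the set. The fewest in the set were 1 of 58 without LINC00894 replicate 3, beside 394 of 15400 genes in all. The most were 6 of 59 without vector replicate 2, beside 592 of 15427 genes. Without LINC00894 replicate 2 there were 4 of 59, beside 1104 of 15417 genes. Positive fold changes numbered between 27 and 47, and the median ran from -0.03 to 0.29, with a library left out; without LINC00894 replicate 1 and vector replicate 3 (chosen after seeing the data) there were 24, with a median of -0.15. Non-overlapping genes numbered between 12 and 19 with a library left out (14.6% to 23.2% of the set, against 15.2% to 24.2% of all genes) and 27 without those 2 (32.9% against 34.7%), since fewer libraries make separation easier.

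With a library left out, log2 fold changes ran from -0.92 to 2.92 for Il11, -0.20 to 0.84 for Il6, -0.06 to 0.76 for Il1b, -0.33 to 0.80 for Il1r2, -0.07 to 0.52 for Il1r1, -0.40 to 0.89 for Tnfrsf12a, -0.33 to 0.34 for Il6st, 0.017 to 0.59 for Tnfrsf1a, -0.11 to 0.46 for Il4r and -0.54 to 0.052 for Tnfrsf11b. Without LINC00894 replicate 1 and vector replicate 3 they were -1.47 for Il11, -0.71 for Il6, -0.39 for Il1b, -0.55 for Il1r2, -0.089 for Il1r1, -0.24 for Tnfrsf1a, -0.69 for Tnfrsf12a, -0.42 for Il6st and -0.22 for Il4r. With the Y-linked covariate they were -0.50 for Il11, -0.11 for Tnfrsf12a and -0.39 for Il6st. The cause of these reversals was not tested. Depth limits the 37 genes with a mean under 1 FPKM.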
